A study of Rattus norvegicus with 2 samples.

Results

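The comparison of OBP-801 with saline in the ventral prostate rested on 1 two-colour array, 1 of 2 arrays in the series. Its members were the probes named by an Ensembl rat gene identifier, all 20174 of the 20174 such probes on the array, each printed as a single spot. OBP-801 is an inhibitor of histone deacetylases. Histone deacetylases remove acetyl groups from histone tails and from other proteins, and their inhibition leaves chromatin more acetylated, which is known to raise the transcription of some genes and to lower that of others. The ventral prostate is a lobe of the rat prostate whose epithelium depends on androgen and secretes abundant proteins into the prostatic fluid.

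The OBP-801 group consisted of male TRAP rats given OBP-801 at 1 mg per kg of body weight, and the saline group of male TRAP rats given saline. The dose was per kilogram in the treatment protocol only, and the other labels gave 1 mg. Injections were intravenous, began at 6 weeks of age and were given 2 times a week for 8 weeks. All rats carried the same transgene and were fed a control diet. TRAP rats express the SV40 T antigen under the probasin promoter, which is active in prostate epithelium, so that prostate tumours develop. The tissue was labelled as ventral prostate cancer. The RNA of OBP-801 rats was labelled with Cy3 and that of saline rats with Cy5. How many rats contributed to either RNA is not stated in the labels.

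The comparison has no replicate, and no array with exchanged dyes was analysed. For a single probe, treatment and dye therefore cannot be told apart, and none of the differences was tested over rats. In whole tissue, a change in the share of a cell type and a change in RNA per cell cannot be told apart either. Of the 20174 identifiers, 0 matched a gene symbol, since neither the array files nor the RefSeq gene table pairs them. Genes are therefore given by identifier, the 2 highest and the 2 lowest by name and the others by rank. The tissue label could not be checked against marker genes, and the 50 gene lists drawn up for this comparison could not be evaluated.

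Net signal is the spot median less the mean of the 5808 blank spots, with 5% of the blanks left out at each end. The blank mean was 58.1 units in the OBP-801 channel and 15.7 units in the saline channel, with a blank SD of 2.39 units in the OBP-801 channel and 0.813 units in the saline channel. A channel was called well measured where its net signal was at least 10 blank SDs, which was 23.9 units for OBP-801 RNA and 8.13 units for saline RNA. On this rule 11980 probes (59.4%) were well measured in OBP-801 RNA and 12724 (63.1%) in saline RNA. Both channels were well measured for 11825 probes after 5 spots with a scanner flag had been left out. In neither channel were 7300 probes (36.2%) well measured. The limit was passed by 0.155% of blanks in the OBP-801 channel and 0.31% in the saline channel. Over 4 kinds of negative control with 24 spots each, it was passed by 0% in the OBP-801 channel, and in the saline channel by 4.17% of 1 kind and 0% of the others.

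Only technical error could be estimated. Across 24 spots each, the positive controls had log2 ratios of OBP-801 over saline of 0.09 ± 0.08 and -0.10 ± 0.12 (mean ± SD over spots). Each probe was given a 95% technical interval from the blank SD of both channels and the larger of these spot SDs. Its median half-width was 0.24 on the log2 scale. The interval holds no spread between rats, labelling reactions or arrays, and no dye preference of a probe.

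OBP-801 RNA was the brighter channel before correction, by 1.08 on the log2 scale at the median probe. The correction treats this offset as dye balance and so sets the median change to about 0. With 1 array, a shift of most probes with OBP-801 cannot be told apart from the dye. The loess correction for dye balance was nearly flat, since the median uncorrected ratio of the 10 brightness deciles ran only from 1.01 to 1.11. After correction the median log2 ratio of the well-measured probes was 0.00, and for 85.2% the ratio was under 1.5-fold either way. The middle 95% of probes ran from -0.76 to 0.97. The SD across probes was 0.43, larger than the spot SDs of the positive controls. The 2 kinds of spread are not alike. Each control SD is over repeats of the same control, at a median of 14178 or 28278 net units in OBP-801 RNA. The SD across probes is over different probes, with a median of 256 net units in OBP-801 RNA.

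With OBP-801, 267 probes were at least 2-fold higher and 92 at least 2-fold lower. These are 2.26% and 0.778% of the 11825 well-measured probes, 3.04% together. Higher probes made up 74.4% of the 2-fold calls. This share varied with the limit on signal, at 56.2% for any net signal above 0, 68.5% at 2 blank SDs and 74.3% at 30 blank SDs. Left out of the count were 894 probes well measured in saline RNA only and 150 in OBP-801 RNA only. Without any correction of the dye balance the calls were 6758 higher and 2 lower, a step that moves the median of all well-measured probes to 1.07. Among the 267 higher and 92 lower dye-corrected calls, 34 probes were at least 3-fold and 12 at least 4-fold higher, against 5 and 2 probes that far lower. Probes next to the threshold had log2 ratios of 1.002 inside and 0.997 outside among the higher ones, and of -1.004 inside and -0.996 outside among the lower ones.

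**Figure D1:**
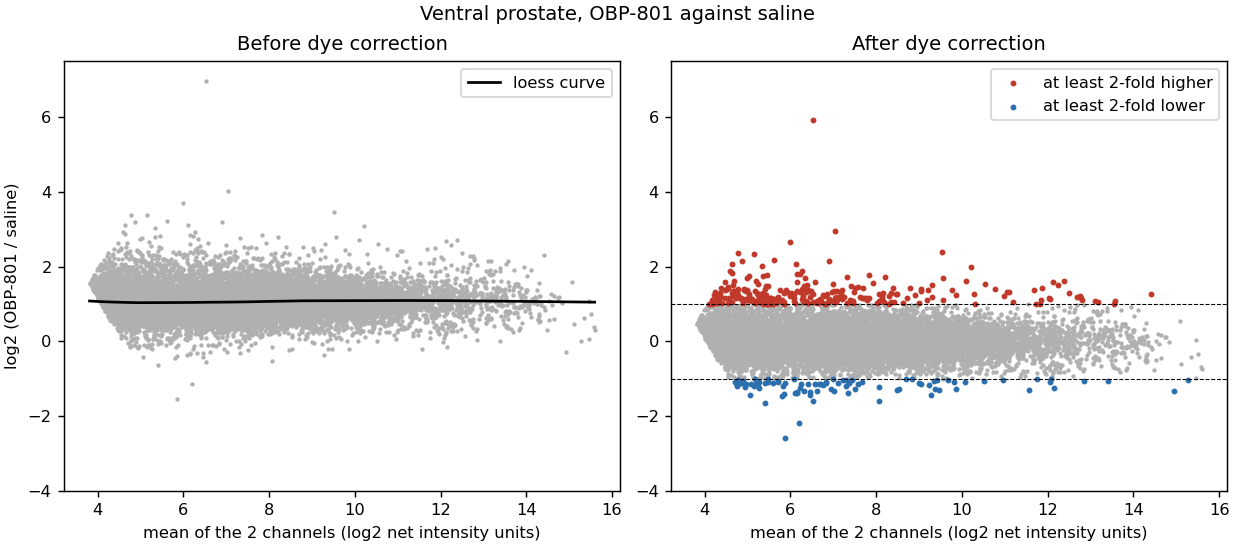
Log2 ratio of OBP-801 over saline (vertical axis) against the mean log2 net signal of both channels (horizontal axis) for the 11825 well-measured ventral probes, before (left, with the loess curve) and after (right) dye correction. Dashed lines mark 2-fold; 267 probes lie at or above the upper line and 92 at or below the lower one, and the curve stays close to 1 on the log2 scale at all brightness levels.

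For fewer probes the whole technical interval lay beyond 2-fold. There were 110 such probes in the higher direction (0.93% of the well-measured probes) and 28 in the lower direction (0.237%). The remaining 2-fold calls had an interval that reached inside 2-fold. With an offset of 50 units added by the normexp correction, 62 probes were at least 2-fold higher and 26 lower. With subtraction of the local background the counts were 1245 and 381, and these included 181 of the 267 higher and 70 of the 92 lower main calls.

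Higher and lower probes differed in how bright they were. Higher probes had a median net signal of 181 units in OBP-801 RNA and 32.9 units in saline RNA. Lower probes had a median of 99.95 units in OBP-801 RNA and 111 units in saline RNA. A rule that selects on the ratio to saline favours this order, and the well-measured limit sets a floor under it. Of the 267 higher probes, 111 had a saline signal under 30 blank SDs, and of the 92 lower probes 38 had an OBP-801 signal under 30 blank SDs. The higher probes held 3.07% of the net signal of all gene probes in OBP-801 RNA and 1.30% in saline RNA. The lower probes held 0.927% in OBP-801 RNA and 2.06% in saline RNA.

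By brightness decile, from the dimmest to the brightest, the number of higher probes was 39, 55, 35, 35, 29, 16, 14, 10, 9 and 25 among 1182 or 1183 probes each. Lower probes numbered 5, 16, 14, 15, 10, 5, 3, 9, 5 and 10 over the same deciles. The share of higher probes was thus 4.65% in the second decile and 0.761% in the ninth, and 2.11% in the tenth. The SD of the log2 ratio across probes was 0.49 in the second decile, 0.36 in the ninth and 0.41 in the tenth. The median technical half-width was 0.36 in the first decile and 0.24 in the tenth. The tenth decile had a median of 4473 units in OBP-801 RNA and 2060 units in saline RNA. It held more 2-fold calls than the deciles just below it. Its half-width was like theirs by construction, because the same control spot SD was applied to every probe and dominates for bright ones. Whether these deciles were equally precise was not measured.

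**Figure D2:**
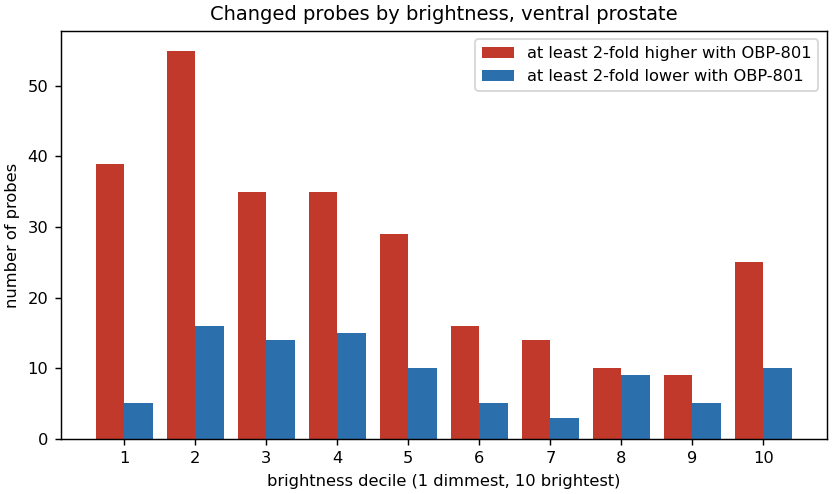
Number of ventral probes (vertical axis) at least 2-fold higher (red) or lower (blue) with OBP-801 in each brightness decile of the well-measured probes (horizontal axis, 1 dimmest). Higher probes are most numerous in decile 2 (55) and fewest in decile 9 (9), and decile 10 holds 25.

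The probe with the highest ratio, ENSRNOG00000033972, had 1032 net units in OBP-801 RNA and 8.30 net units in saline RNA. Its dye-corrected ratio was 60.3-fold, with a technical interval of 46.8 to 77.6. Its saline signal was 10.2 blank SDs, just above the limit, so that the size of this fold rests on a signal near background, and with the offset of 50 units the log2 ratio was 3.32 instead of 5.91. Before subtraction its OBP-801 spot had 1090 units, beside a local background of 688 units. With the local background subtracted its log2 ratio was 5.39, below the interval of 5.55 to 6.28. In the lateral prostate the same probe was among the brightest, with at least 65471 net units in OBP-801 RNA, at the ceiling of the detector, and 15715 net units in saline RNA.

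ENSRNOG00000004320 was next, with 529 net units in OBP-801 RNA and 32.8 net units in saline RNA of the ventral prostate. It was 7.80-fold higher, with a technical interval of 6.57 to 9.25. In the lateral prostate its signals were 680 net units in OBP-801 RNA and 2931 net units in saline RNA, a log2 ratio of -3.12. The direction in the lateral prostate was thus opposite.

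The probe with the lowest ratio, ENSRNOG00000001159, had 34.1 net units in OBP-801 RNA and 99.1 net units in saline RNA. It was 5.96-fold lower, with a technical interval of 4.81 to 7.39. Before subtraction its spot had 92.19 units in the OBP-801 channel, beside a local background of 89.25 units. In the saline channel the spot had 114.9 units, beside a local background of 91.94 units. With the local background subtracted its log2 ratio was -4.30 instead of -2.58, outside the interval. On the lateral array its signals were 27.7 net units in OBP-801 RNA, under the limit there, and 37.2 net units in saline RNA. ENSRNOG00000006019 had 49.9 net units in OBP-801 RNA and 110 net units in saline RNA, and was 4.53-fold lower with a technical interval of 3.75 to 5.48. Its lateral signals were 26.1 net units in OBP-801 RNA and 16.4 net units in saline RNA, with OBP-801 again under the limit.

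The other probes among the 15 highest were 3.71-fold to 6.36-fold higher. A low saline signal was common among them, as 10 of the 15 had less than 30 blank SDs in saline RNA. The other 5 ranked 2, 4, 9, 13 and 14. The brightest of these were the fourth in rank, with 2449 net units in OBP-801 RNA and 222 net units in saline RNA, and the thirteenth, with 3470 net units in OBP-801 RNA and 410 net units in saline RNA. The fourth was 5.204-fold and the thirteenth 3.975-fold higher. The technical interval of all 15 lay beyond 2-fold, but with the offset of 50 units 7 of them were under 2-fold. With the local background 12 of the 13 with a value were at least 2-fold higher, and the seventh in rank had a log2 ratio of 0.42 in place of 2.18. In the lateral prostate 13 of the 15 were well measured, of which 11 were higher with OBP-801 there too and 9 at least 2-fold higher. Over all probes well measured on both arrays, 49.5% had a lateral ratio above 0 and 1.72% were at least 2-fold higher there.

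The 15 lowest probes spanned a narrower range, from 2.54-fold to 5.96-fold lower. The fourth of them had 223 net units in OBP-801 RNA and 323 net units in saline RNA. The ninth, the brightest of the 15, had 549 net units in OBP-801 RNA and 705 net units in saline RNA and was 2.72-fold lower. The technical interval of all 15 lay beyond 2-fold here too, but with the offset of 50 units 10 of them were under 2-fold. In the lateral prostate 6 of the 15 were well measured, and all 6 were at least 2-fold lower with OBP-801. Over all probes well measured on both arrays, 1.31% were at least 2-fold lower there.

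**Figure D3:**
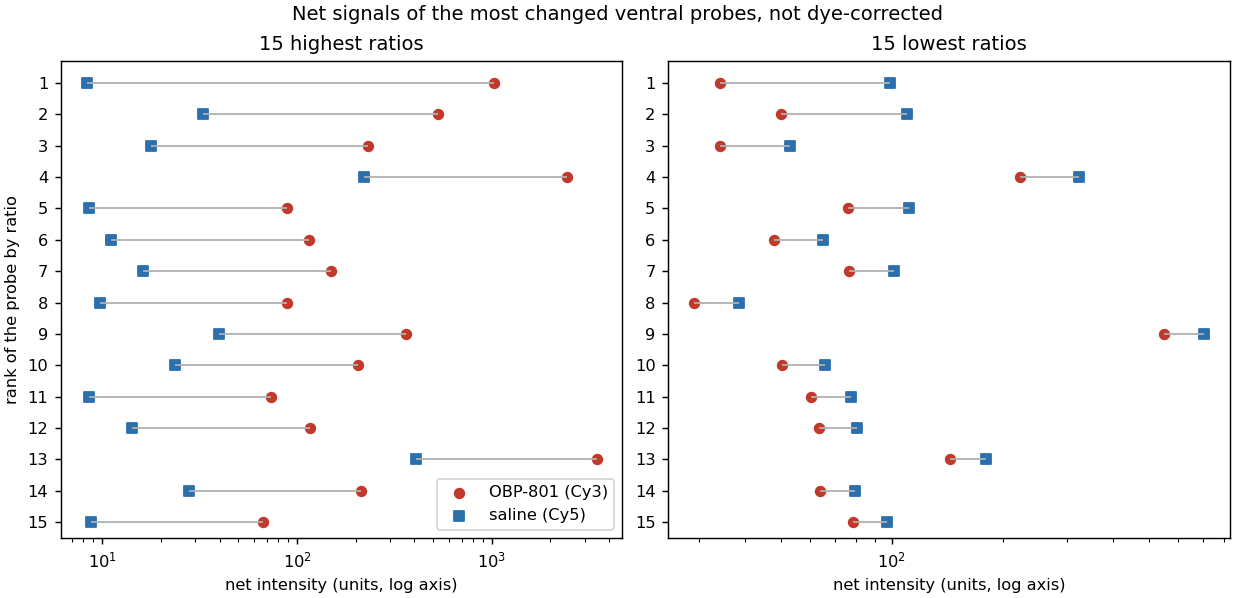
Net signal (horizontal log axis, intensity units, not dye-corrected) in OBP-801 RNA (red circles) and saline RNA (blue squares) for the 15 highest (left) and 15 lowest (right) ventral ratios, ordered by rank from the top. The highest-ranked probe has 1032 units in OBP-801 RNA and 8.30 units in saline RNA, and in all 15 lowest ratios the OBP-801 signal is the smaller although that channel is the brighter one at most probes.

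Bright probes were taken as those with at least 1000 net units in saline RNA, which is the denominator of the ratio, so that the choice works against high ratios. Of 1234 well-measured bright probes, 21 (1.70%) were at least 2-fold higher and 13 (1.05%) at least 2-fold lower. Over all 11825 well-measured probes the shares were 2.26% higher and 0.778% lower. The higher ones ranged from 2.01-fold to 3.07-fold. The first of them had 13615 net units in OBP-801 RNA and 2091 net units in saline RNA, 3.07-fold higher with a technical interval of 2.60 to 3.61. The second had 11273 net units in OBP-801 RNA and 1754 net units in saline RNA, 3.02-fold higher. The brightest of the higher ones had 48842 net units in OBP-801 RNA and 9788 net units in saline RNA, and was 2.39-fold higher.

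The 13 bright lower probes ranged from 2.01-fold to 2.53-fold lower. The lowest of them had 28426 net units in OBP-801 RNA and 34542 net units in saline RNA, 2.53-fold lower with a technical interval of 2.14 to 2.98. Another very bright one had 39461 net units in OBP-801 RNA and 39349 net units in saline RNA. It was called 2.07-fold lower because equal net signals lie below the array-wide offset, which the correction treats as dye balance. Intervals lay wholly beyond 2-fold for 7 of the 21 higher and 4 of the 13 lower bright probes.

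The very brightest transcripts leaned lower with OBP-801. Of the 10 probes with the largest mean log2 signal, 8 had a ratio below 0, with a median log2 ratio of -0.64 and a range of -1.34 to 0.54, and 2 were at least 2-fold lower. These 10 held 3.75% of the net signal in OBP-801 RNA and 5.57% in saline RNA. The median was also below 0 with median centring (-0.67) and with the offset (-0.72), and ranking by OBP-801 signal alone gave -0.18. Over the 100 brightest probes the median was -0.05, and 84 of them differed by under 1.5-fold. On the lateral array all 10 had ratios below 0. At the detector ceiling in OBP-801 RNA were 1 ventral and 2 lateral gene probes, against 0 in saline RNA on either array. A ceiling in OBP-801 RNA can only lower the ratio of a probe that reaches it. The ventral probe at the ceiling had 65477 net units and a ratio within 1.5-fold of no change. The 2 of the 10 probes that were at least 2-fold lower were below that level in ventral OBP-801 RNA, at 28426 and 39461 net units. Whether the ceiling contributed to the lean was not tested.

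Some probes were well measured in a single channel, so that their fold is a lower bound, taken against the limit of 10 blank SDs in the other channel. In OBP-801 RNA alone 150 probes were well measured, and the bound was at least 2-fold higher for 37 of them (24.7%). In saline RNA alone 894 were, with a bound of at least 2-fold lower for 4 (0.447%). The limit is the higher one in the OBP-801 channel, also after the dye balance. The highest bound belonged to a probe with 280 net units in OBP-801 RNA and 0.869 net units in saline RNA, at least 16.8-fold higher. The next had 195 net units in OBP-801 RNA and 0.165 net units in saline RNA, at least 11.7-fold higher. The largest bound in the other direction was at least 2.35-fold lower, for a probe with 15.6 net units in OBP-801 RNA and 27.3 net units in saline RNA.

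Both probes with the highest bounds, like ENSRNOG00000033972, were bright in the lateral prostate. The first had 49586 net units in OBP-801 RNA and 7780 net units in saline RNA of that lobe, and the next had 16383 net units in OBP-801 RNA and 3242 net units in saline RNA. Such lateral-rich probes were therefore taken as a group, defined as at least 8-fold brighter in lateral than in ventral saline RNA after scaling. The choice of this group followed from the values. There were 21 such probes, of which 12 were well measured in both ventral channels. Of the 12, 11 had a ventral ratio above 0 and 5 (41.7%) were at least 2-fold higher, against 2.26% of all well-measured probes, and 0 were at least 2-fold lower. A further 5 were well measured in ventral OBP-801 RNA only and 1 in ventral saline RNA only. Summed over the 21 probes, ventral net signal was 4693 units in OBP-801 RNA and 693 units in saline RNA, 3.20-fold higher after the dye balance.

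Selection by saline signal favours a high ratio, because the ventral saline signal is also the denominator of the ratio. Selection in OBP-801 RNA, which has the opposite bias, gave 28 probes, 19 of them shared. Of the 17 well measured in both ventral channels, 12 had a ratio above 0 and 4 (23.5%) were at least 2-fold higher. Their summed ventral signal was 5852 units in OBP-801 RNA and 1595 units in saline RNA, 1.73-fold higher after the dye balance.

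The level of the 3 most lateral-rich probes in ventral RNA was small relative to the lateral lobe. For the 3 highest, ventral OBP-801 RNA held 1.58%, 0.565% and 1.19% of the signal in lateral OBP-801 RNA. For the first of them ventral saline RNA held 0.0528% of the signal in lateral saline RNA. The other two were under the limit in ventral saline RNA, and taken at that limit they held at most 0.104% and 0.251%. The first of these lateral OBP-801 signals was at the detector ceiling, so its percentage is an upper bound. Other lateral-rich probes held a larger share of their lateral signal in ventral OBP-801 RNA. The fourth, ENSRNOG00000004320, held 77.8% of its lateral OBP-801 signal, and the seventh, under the limit in ventral OBP-801 RNA, 46.8%. The remaining ones, some of them under that limit, held 1.97% to 12.8%. For the fourth and seventh the lateral OBP-801 signal was itself low, at 680 and 47.8 net units, against 2931 and 335.8 net units in lateral saline RNA. Whether RNA of the lateral lobe was present in the ventral OBP-801 RNA was not tested. Leaving the lateral-rich probes out changed the number of higher probes to 262 and left 92 lower.

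**Figure D4:**
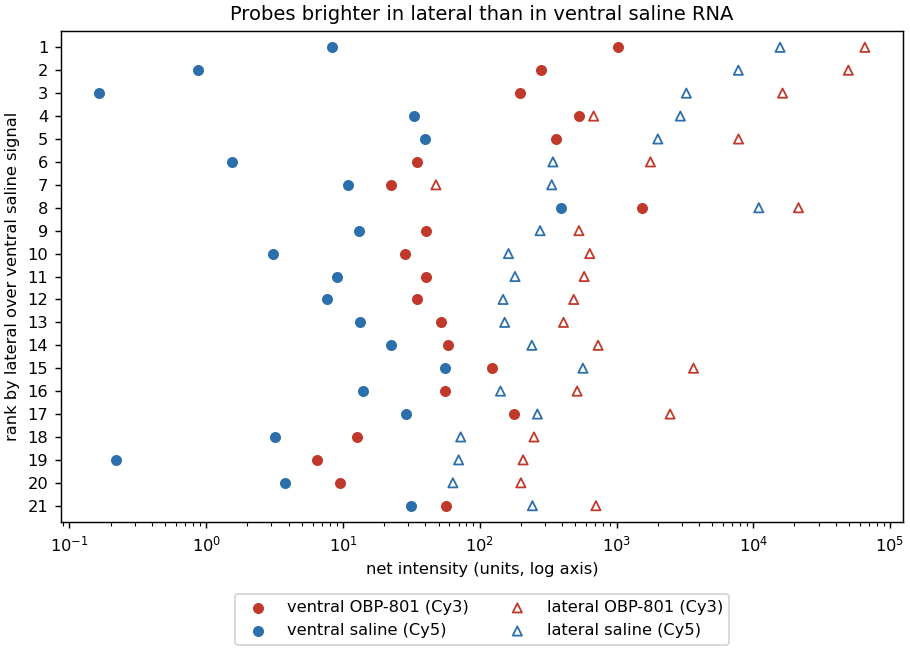
Net signal (horizontal log axis, intensity units, not dye-corrected) of the 21 probes at least 8-fold brighter in lateral than in ventral saline RNA, ordered by that ratio from the top. Ventral signals are filled circles and lateral signals open triangles, with OBP-801 RNA in red and saline RNA in blue; for the first 3 probes ventral OBP-801 RNA has 1032, 280 and 195 units against 8.30, 0.869 and 0.165 units in ventral saline RNA, of which the last 2 are under the limit of 8.13 units.

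The lateral array offers the same contrast in another lobe, with the dyes in the same orientation, so that a dye preference of a probe is shared by both arrays. Among 10702 probes well measured on both, 1.72% were at least 2-fold higher and 1.31% at least 2-fold lower in the lateral lobe. Of the 267 probes higher in the ventral lobe, 219 were well measured in the lateral lobe, and 113 of these (51.6%) were at least 2-fold higher there. Their median lateral log2 ratio was 1.02, beside 1.20 in the ventral lobe. A lateral ratio above 0 was found for 215 of the 219, against 49.5% of the 10702 probes. A lateral ratio within 1.5-fold of no change was found for 20. The probe with the opposite direction at 2-fold was ENSRNOG00000004320.

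Of the 92 probes lower in the ventral lobe, 55 were well measured in the lateral lobe, and 31 (56.4%) were at least 2-fold lower there. The median lateral log2 ratio was -1.11, beside -1.13 in the ventral lobe. All 55 had a lateral ratio below 0, against 5400 of the 10702 probes well measured on both arrays. The 21 bright higher probes had a median lateral log2 ratio of 0.91, and all 21 were above 0. The 13 bright lower probes had a median of -1.155, and all 13 were below 0. No test of the difference between lobes was possible with 1 array each.

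**Figure D5:**
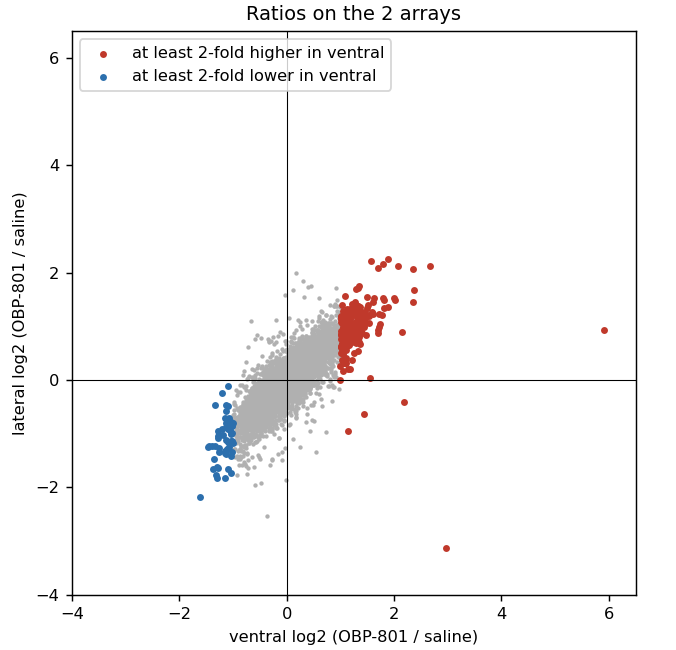
Lateral log2 ratio of OBP-801 over saline (vertical axis) against the ventral one (horizontal axis) for the 10702 probes well measured on both arrays. Probes at least 2-fold higher (red) or lower (blue) in the ventral lobe are coloured; all 55 blue points lie below 0 on the lateral axis and 215 of the 219 red points lie above it. Of all 10702 points, 5302 lie above 0 on that axis.

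Position on the array moved with the ratio to a small extent. Block medians of the log2 ratio ran from -0.13 to 0.17 over 24 printed blocks. Blocks 1 to 3 had medians of 0.15 to 0.17 and held 57 of the 267 higher probes, 3.87% of their well-measured probes, against 2.03% in the other 21 blocks. For lower probes the shares were 0.747% in blocks 1 to 3 and 0.782% elsewhere. With each block set to a median of 0, 251 probes were at least 2-fold higher and 93 lower. Of the calls made without this step, 239 higher and 86 lower ones were kept.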

How the data were processed

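Spot and local background intensity values were deposited as medians, combined from 3 scanner gains, per the file headers. The labels name 2 different RNA kits, and no image software is named. The deposited log2 table equalled log2 of Cy3 over Cy5 net of the trimmed blank mean, less 1.08 (ventral; SD of the remainder 1.7e-05). Its direction is therefore OBP-801 over saline and its median is 0.

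Ratios were computed with limma 3.58.1 in R 4.3.3. The trimmed blank mean was subtracted, and loess (span 0.3, 4 iterations) was fitted to gene probes without a scanner flag whose 2 channels exceeded 2 blank SDs. Calls used 10 blank SDs in both channels and 2-fold. The calculation was tested on simulated data with a constant dye balance, in which changes were set only in probes well above the limit. Calls of dim probes were therefore not covered by that test. Summaries used Python 3.11.15, numpy 2.4.6 and pandas 2.3.3. With 1 array no test was made, and the number of arrays limits the precision.

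Spots with a scanner flag were left out after the ratios had been seen. The technical interval, the 1000-unit class of bright probes, the 8-fold rule for lateral-rich probes and the block centring were also chosen after seeing the data. The rule for named probes asked for gene symbols. With 0 matched, the 2 highest and 2 lowest ratios are named, and the 50 gene lists were not evaluated. Members, lists and comparisons were chosen with earlier results of these data known.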

Additional observations from a re-analysis of the deposited data

Results flagged for a closer look

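ENSRNOG00000004320 moved at least 2-fold in opposite directions in the lobes. On the log2 scale OBP-801 over saline stood at 2.96 in ventral and at -3.12 in lateral prostate, a difference that was not tested because there is 1 array per lobe.

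Signal was also present outside the gene probes. Among 521 spots named as quality control probes, the limit of 10 blank SDs was passed by 42.4% in OBP-801 RNA and by 44.7% in saline RNA, against 0.155% of blanks in OBP-801 RNA and 0.31% of blanks in saline RNA. What these spots carry is not stated in the files. Among 809 spots described as having no probe, 0% passed the limit in OBP-801 RNA, against 1.61% for saline.

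Of the 5 gene probes left out for a scanner flag, 2 would have been at least 2-fold higher. The higher of them had 681 net units in OBP-801 RNA and 14.3 net units in saline RNA, a log2 ratio of 4.52. Its lateral signals were 8.49 net units in OBP-801 RNA and 5.23 net units in saline RNA, both under the limits.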

How the results depend on the processing

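Against 267 higher and 92 lower ventral probes, there were 62 higher and 26 lower with normexp and an offset of 50, 1245 higher and 381 lower with the local background, and 6758 higher and 2 lower with no dye correction. Other limits on signal gave 520 higher and 239 lower at 2 blank SDs, 1318 higher and 1027 lower for any net signal above 0, and 156 higher and 54 lower at 30 blank SDs. Other fold thresholds gave 1060 higher and 696 lower at 1.5-fold, and 34 higher and 5 lower at 3-fold. All probes listed in the authors' deposited log2 table gave 591 higher and 205 lower. Higher probes made up 56.2% of calls for any net signal above 0, 60.4% at 1.5-fold and 87.2% at 3-fold. Median centring and the deposited table at 10 blank SDs are the same calculation, and gave 240 higher and 107 lower. Of 28 counts under an alternative, 10 stayed within 1.5 times and 18 did not. The 10 came from median centring, the identical deposited table at 10 blank SDs, block centring, and the settings with flagged spots kept or lateral-rich probes left out. The last 2 settings changed the 11825 probes only to 11830 and 11813, so that they could hardly move the counts. Block centring, keeping spots with a scanner flag (269 higher and 92 lower), leaving out lateral-rich probes and the full deposited table were added after seeing the data. With normexp, the local background and no dye correction, 11 of 12 log2 ratios of the 4 named probes left the technical interval. With the local background, 255 of 256 higher and 85 of 88 lower probes with a value kept their sign. At 2-fold, it kept 181 of the 267 higher and 70 of the 92 lower calls, and normexp kept 62 and 25. No paired analysis was possible because the design holds a single array for the lobe. Alternatives for gene lists were left out for lack of symbols. Signal over background limits the dimmest probes, where the technical interval is widest.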
